A study of Mus musculus with 2 samples.

Results

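The comparison described here is a 10-fold dose step of antigen, 20 pmol against 2 pmol of a peptide named M9C shown to CD8+ T cells on MHC (pMHC), read in single cells after 30 h of stimulation. CD8+ T cells from spleens of wild-type mice were either rested or given 1 of 5 pMHC stimuli, and every condition was marked with its own hashtag, a barcoded antibody. The groups compared are the 20 pmol M9C culture and the 2 pmol M9C culture. The 0.2 pmol M9C culture and the rested culture, which had no pMHC, place their levels in a wider range. All groups share the wild-type genotype, the splenic source and the 30 h. Each dose was 1 culture, and after a sort for live cells all cultures shared 1 droplet lane (10x Genomics). The sources used here do not give the number of mice, the T cell receptor of the cells or the way pMHC was presented. With 1 culture per dose nothing separates dose from culture, so no test, p-value or standard error is given, and every interval covers counting error only.

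Members were cells whose most abundant hashtag had at least 20 counts and at least 80% of all hashtag counts, with 500 or more genes and no more than 10% mitochondrial transcripts. The 20 pmol culture gave 1869 such cells and the 2 pmol culture 1703, together 3572 of the 10600 cells that met the rule in all 6 cultures and of 13439 barcodes. Just inside the hashtag threshold, at 80 to 85% of counts, lay 50 cells at 20 pmol and 41 at 2 pmol. Just outside it, at 75 to 80%, lay 46 barcodes at 20 pmol and 16 at 2 pmol. The cells held 12916714 unique molecular identifiers (UMIs, each counting 1 captured transcript) at 20 pmol and 11982336 at 2 pmol, with medians of 6943 and 6996 per cell. A count of 0 in a culture allows up to 0.232 CPM (UMIs scaled to a common total per culture) at 20 pmol and 0.250 CPM at 2 pmol.

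The labelled cell type was checked against its markers. At least 3 UMIs of Cd8a, Cd8b1, Cd3e, Cd3d, Cd3g and Trac, the coreceptor and receptor genes of CD8+ T cells, were found in 97.8% of cells at 20 pmol and 97.6% at 2 pmol. Cd4 had 1 UMI in the whole 20 pmol culture and 0 in the 2 pmol culture. Of B cell genes, Ighm stood at 214 CPM at 20 pmol and 206 CPM at 2 pmol, and the gamma-delta chain gene Trdc at 57.7 and 57.8 CPM.

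The T cell receptor passes antigen strength and amount on through calcium and the transcription factor NFAT, through the Ras and Erk kinase cascade, and through NF-kB. NFAT and its partners switch on cytokine and chemokine genes, whereas Erk induces immediate-early genes together with their own inhibitors. The title of the series names long-term Erk and NFAT signals as its subject, so genes linked to both are given below beside the effector genes they control. In bulk sums such as these, fewer cells with a transcript and less transcript per cell cannot be told apart, which is why shares of cells follow the sums.

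The pair of oligos that define the groups is shown first, since every value rests on telling these cultures apart. Capitals mark the whole hashtag barcode, taken from the deposited table.
20 pmol M9C hashtag: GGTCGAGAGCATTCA
2 pmol M9C hashtag: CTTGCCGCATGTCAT

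Promoters of 4 genes that were higher at the larger dose are shown because NFAT, whose core motif is GGAAA, is a subject of the series. They run from 250 bases before to 50 after the start site, come from RefSeq on build GRCm38.p6, and are written 5′ to 3′ on the strand of the gene. Capitals mark GGAAA or its reverse complement TTTCC.
Twist1, chr12:33957421-33957720, plus strand: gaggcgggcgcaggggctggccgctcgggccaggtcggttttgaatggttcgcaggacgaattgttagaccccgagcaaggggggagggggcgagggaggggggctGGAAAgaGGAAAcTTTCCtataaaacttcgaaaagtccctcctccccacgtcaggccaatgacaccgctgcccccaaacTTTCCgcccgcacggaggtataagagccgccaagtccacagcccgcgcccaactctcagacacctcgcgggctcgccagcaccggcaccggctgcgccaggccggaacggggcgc
Xcl1, chr1:164935473-164935772, minus strand: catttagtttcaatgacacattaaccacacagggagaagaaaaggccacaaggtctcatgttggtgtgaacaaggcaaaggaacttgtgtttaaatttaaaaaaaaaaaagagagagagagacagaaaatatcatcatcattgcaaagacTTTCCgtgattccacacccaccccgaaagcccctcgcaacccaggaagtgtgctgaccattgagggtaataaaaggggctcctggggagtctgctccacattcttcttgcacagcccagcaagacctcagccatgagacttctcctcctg
Ccl3, chr11:83649329-83649628, minus strand: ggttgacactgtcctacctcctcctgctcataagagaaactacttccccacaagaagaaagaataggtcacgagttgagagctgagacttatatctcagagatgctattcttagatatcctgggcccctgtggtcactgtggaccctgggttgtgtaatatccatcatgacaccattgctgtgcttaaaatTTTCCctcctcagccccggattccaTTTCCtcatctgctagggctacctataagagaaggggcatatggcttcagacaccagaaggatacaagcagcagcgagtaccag
Il2, chr3:37125905-37126204, minus strand: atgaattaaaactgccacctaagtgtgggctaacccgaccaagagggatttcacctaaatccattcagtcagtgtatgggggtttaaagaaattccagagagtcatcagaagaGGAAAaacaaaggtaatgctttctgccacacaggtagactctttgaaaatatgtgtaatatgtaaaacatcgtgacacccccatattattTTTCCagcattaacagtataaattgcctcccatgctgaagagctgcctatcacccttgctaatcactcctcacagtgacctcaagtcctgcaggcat

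On both strands together, Twist1 held 4 matches, Ccl3 and Il2 held 2 each, and Xcl1 held 1. The promoters of Ccl1 and Ifng, from the same table, held 3 and 1, and that of Prf1 held 0. A match to GGAAA was found in 61.3% of the 32817 promoters of this length, so its presence separates these genes little from others. Neither an AP-1 motif (TGANTCA, in 7.81% of promoters) nor an EGR motif (GCGNGGGCG, in 5.56%) had a match in any of the 7 windows on either strand. Such matches describe letters in a window, not binding.

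Most transcripts were at nearly the same level at both doses. A gene was taken as measured where either culture held it at 10 CPM or more, which 6946 genes met. Their median log2 ratio of 20 over 2 pmol was 0.01, and for 6759 of them (97.3%) neither culture stood 25% above the other. For 4475 genes (64.4%) the whole interval of the ratio lay within that bound. A measured gene was called where one culture stood at least 25% above the other and the exact 95% interval of the ratio excluded equality. By that rule 109 genes were called higher at 20 pmol, which is 1.57% of those measured, and 52 were called lower, which is 0.749%. An interval of this kind excludes equality through counting error alone for up to 5% of genes that are equal, so single calls among low genes are weak. With no minimum size of difference, 466 genes (6.71%) had intervals above equality and 295 (4.25%) below it. At 1.5-fold or more, 16 genes were higher (0.23%) and 6 lower (0.0864%). At 2-fold or more, 2 were higher (0.0288%) and 3 lower (0.0432%), and those 3 were transcripts of a few cells described further on.

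**Figure D1:**
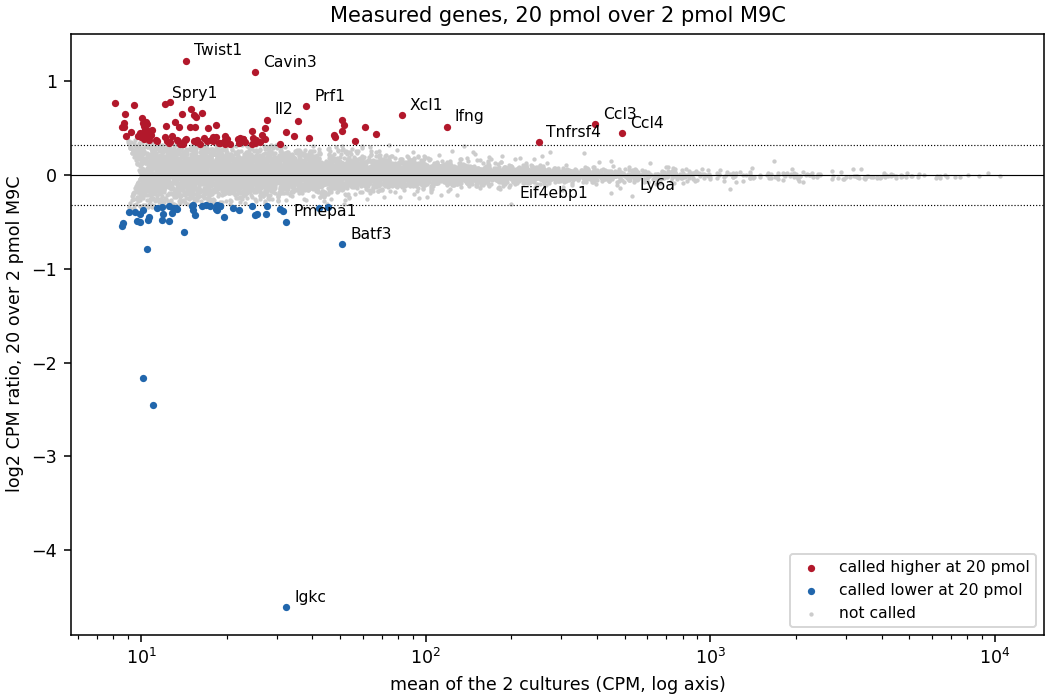
Each point is a measured gene, with its mean level over the 2 cultures (CPM, log axis) across and its log2 CPM ratio of 20 over 2 pmol M9C up, dotted lines where one culture stands 25% above the other. The 109 genes called higher include the abundant chemokine genes Ccl3 and Ccl4, while most of the 6946 genes lie close to 0.

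Chemokine and cytokine genes were the clearest group. Of 28 listed genes 13 were measured, 6 of them were called higher and 0 lower, and their median log2 ratio was 0.25, beside 0.01 over all measured genes, of which 1.57% were called higher. Ccl3 and Ccl4 encode the inflammatory chemokines MIP-1alpha and MIP-1beta, which draw in leukocytes. Ccl3 (chr11:83647844-83649355, minus strand, GRCm38) stood at 465 CPM at 20 pmol and 321 CPM at 2 pmol, 1.45-fold higher (95% counting interval 1.39 to 1.51). Its neighbour Ccl4 (chr11:83662584-83664683, plus strand) stood at 565 CPM at 20 pmol and 416 CPM at 2 pmol, 1.36-fold higher (1.31 to 1.41). Both levels were far above those of rested cells, at 16.3 and 13.1 CPM.

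Xcl1 encodes lymphotactin, a chemokine that attracts cross-presenting dendritic cells. It stood at 100.5 CPM at 20 pmol and 64.8 CPM at 2 pmol, 1.55-fold higher (1.42 to 1.70), the largest ratio in this list. Ccl1, a ligand of the chemokine receptor CCR8, stood at 42.5 CPM at 20 pmol and 28.5 CPM at 2 pmol, 1.49-fold higher (1.30 to 1.71). Few cells carried it: 37 at 20 pmol and 32 at 2 pmol had any Ccl1 UMI, and 5 cells in each culture held 55.4% of its UMIs at 20 pmol and 54.4% at 2 pmol. Its CPM therefore describes a handful of cells in each culture.

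Il2, the T cell growth factor interleukin 2, stood at 33.1 CPM at 20 pmol and 22.1 CPM at 2 pmol, 1.5-fold higher (1.28 to 1.75). Ifng, interferon gamma, which activates macrophages and antigen presentation, stood at 139 CPM at 20 pmol and 97.7 CPM at 2 pmol, 1.43-fold higher (1.32 to 1.54). A few cells carried much of it too: the 5 cells richest in Ifng held 45.3% of its UMIs at 20 pmol, with 313 in the top cell, and 43.7% at 2 pmol, with 255 in the top cell. Without those 5 cells in each culture Ifng stood at 76.2 CPM at 20 pmol and 55.0 CPM at 2 pmol, a log2 ratio of 0.47 beside 0.51 with them. With Seurat hashtag calls (0.31) or with cells thinned to 2000 UMIs (0.28), Ifng no longer met the 25% rule, and Ccl1 missed it in the thinned cells (0.33, interval including equality).

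The other 7 measured genes of the list were not called. Tnf, tumour necrosis factor, had nearly the same level, with 26.5 CPM at 20 pmol and 26.4 CPM at 2 pmol. Lta, lymphotoxin alpha, which lies in the same family, leaned the other way, with 46.1 CPM at 20 pmol and 57.3 CPM at 2 pmol (1.24-fold lower, just short of the rule). Ccl5, Ltb, Il16, Tnfsf8 and Tgfb1 lay between log2 ratios of -0.11 and 0.25. Among the 15 genes under 10 CPM in both cultures was Csf2, the growth factor GM-CSF, with 7 UMIs at 20 pmol and 8 at 2 pmol.

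Of the cytotoxic genes Prf1 was called higher. Prf1 encodes perforin, which opens the target membrane, and stood at 47.5 CPM at 20 pmol and 28.7 CPM at 2 pmol, 1.66-fold higher (1.45 to 1.89). Gzmb, granzyme B, the protease that passes through, stood at 128.5 CPM at 20 pmol and 137 CPM at 2 pmol, and its interval included equality. Of the 13 measured genes 1 was called higher and 1 lower, beside 1.57% and 0.749% of all measured genes. The median log2 ratio of the 13 was 0.01. The lower one was Ctla2a, a cysteine protease inhibitor of activated T cells, at 21.8 CPM at 20 pmol and 29.1 CPM at 2 pmol (1.33-fold lower, 1.14 to 1.57). Its near-identical neighbours make its counts uncertain.

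The largest ratio among genes at 20 CPM or more was that of Twist1, a basic helix-loop-helix repressor known in T cells to dampen NF-kB driven cytokine expression. Twist1 (chr12:33957671-33959829, plus strand) had 260 UMIs at 20 pmol, 20.1 CPM, against 104 UMIs at 2 pmol, 8.68 CPM, 2.32-fold higher (1.84 to 2.94). Next came Cavin3, a coat protein of caveolae, at 34.3 CPM at 20 pmol and 16.1 CPM at 2 pmol, 2.13-fold higher (1.79 to 2.53). Neither had a UMI among the 755 rested cells, where a count of 0 allows up to 3.26 CPM. These were the only genes called 2-fold or more higher.

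**Figure D2:**
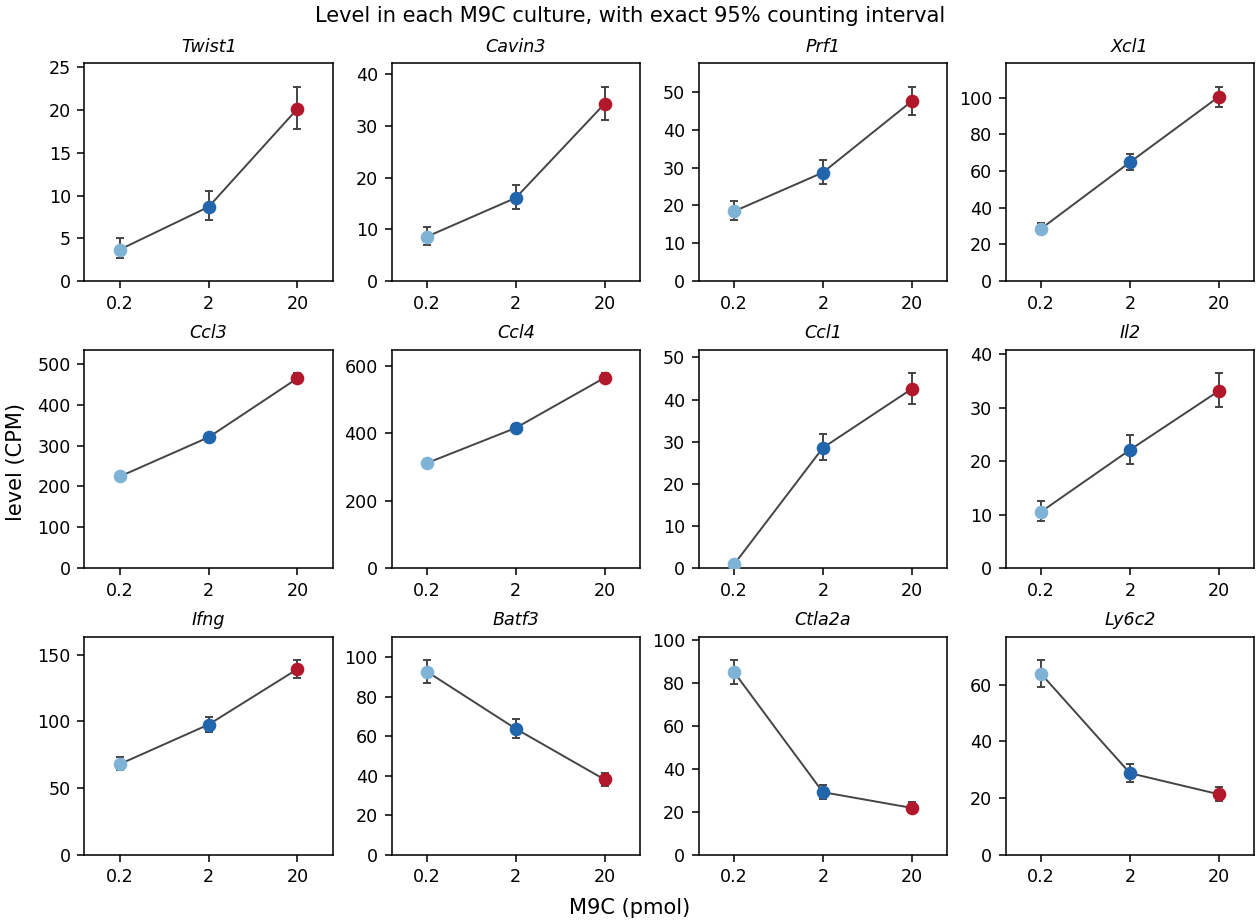
Each panel gives the level of a gene (CPM, axis from 0) in the cultures with 0.2, 2 and 20 pmol M9C, with exact 95% counting intervals and 1 culture per dose. Twist1, Cavin3 and Prf1 stand highest at 20 pmol, Ccl1 is near 0 at 0.2 pmol, and Batf3 stands lowest at 20 pmol.

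Along the 3 doses the levels of these genes were ordered. Twist1 stood at 3.69 CPM at 0.2 pmol, 8.68 CPM at 2 pmol and 20.1 CPM at 20 pmol. Prf1 stood at 18.5, 28.7 and 47.5 CPM over the same doses, and Cavin3 at 8.61, 16.1 and 34.3 CPM. Ccl3 stood at 225, 321 and 465 CPM, Xcl1 at 28.7, 64.8 and 100.5 CPM, and Il2 at 10.5, 22.1 and 33.1 CPM. Ccl1 differed in shape, with 0.879 CPM (10 UMIs) at 0.2 pmol before 28.5 and 42.5 CPM. The upper and lower steps share the 2 pmol culture, so an unusual value there would move both, in opposite directions, and the steps were not compared with each other.

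Of 15 measured Erk-linked genes 3 were called higher and 0 lower, beside 1.57% and 0.749% of all measured genes, with a median log2 ratio of 0.08. The called ones were 2 feedback inhibitors and a corepressor. Spry1, a Sprouty protein that restrains Ras and Erk signalling, stood at 15.2 CPM at 20 pmol and 9.01 CPM at 2 pmol, 1.68-fold higher (1.32 to 2.15). Dusp6, a phosphatase that inactivates Erk, stood at 18.8 CPM at 20 pmol and 12.3 CPM at 2 pmol, 1.53-fold higher (1.24 to 1.90). Nab2, a corepressor of EGR factors, stood at 54.7 CPM at 20 pmol and 41.2 CPM at 2 pmol, 1.33-fold higher (1.18 to 1.49). The intervals of Egr1, Egr2, Egr3, Fos, Ier2 and Myc all included equality, with log2 ratios between -0.15 and 0.14. Of the other phosphatase genes, Dusp2 had a log2 ratio of 0.04 and Dusp5 of -0.07, both with intervals that included equality.

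In the list of NFAT and calcium linked genes 13 were measured, 2 called higher (1.57% over all measured genes) and 0 lower, with a median log2 ratio of 0.09. Nr4a2, an orphan nuclear receptor induced through the T cell receptor, stood at 18.7 CPM at 20 pmol and 12.02 CPM at 2 pmol, 1.56-fold higher (1.26 to 1.93). Its relative Nr4a3 stood at 20.2 CPM at 20 pmol and 19.9 CPM at 2 pmol, and Nr4a1 was under 10 CPM in both. Rgs16, which shortens G protein signals from chemokine receptors, stood at 30.5 CPM at 20 pmol and 22.8 CPM at 2 pmol, 1.34-fold higher (1.14 to 1.57). Hivep3 and Tox, at a log2 ratio of 0.31 each, and Nfatc1, which encodes NFAT2, at 0.26, fell short of the 25% rule with intervals above 0.

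In the NF-kB list 1 of 16 measured genes was called higher and 0 lower, with a median log2 ratio of 0.14. Over all measured genes 1.57% were called higher. That gene was Nfkbie, which encodes the inhibitor IkB epsilon, at 18.2 CPM at 20 pmol and 12.8 CPM at 2 pmol, 1.42-fold higher (1.16 to 1.76).

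Surface receptors differed in a few members. Tnfrsf4 (OX40), a costimulatory receptor of the TNF receptor family, stood at 279 CPM at 20 pmol and 220 CPM at 2 pmol, 1.27-fold higher (1.21 to 1.34). Slamf1, a self-binding receptor of the SLAM family, stood at 72.2 CPM at 20 pmol and 50.7 CPM at 2 pmol, 1.42-fold higher (1.28 to 1.58). They were the 2 called higher among 22 measured activation receptors, with 0 lower, beside 1.57% and 0.749% of all measured genes. The median log2 ratio of these receptors was 0.02. The early activation marker Cd69 (log2 ratio 0.05), the IL-2 receptor alpha chain gene Il2ra (-0.02) and Cd44 (-0.10) all had intervals that included equality. Tnfrsf9 (4-1BB) had a log2 ratio of 0.32 with an interval above 0 and fell just short of 25%.

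All 8 measured inhibitory receptor genes had log2 ratios above 0, with a median of 0.17, although 54.7% of all measured genes also did. Of the 8, 2 were called higher and 0 lower, beside 1.57% and 0.749% of all measured genes. The called ones were Ctla4, a competitor for costimulatory ligands, at 22.3 CPM at 20 pmol and 17.2 CPM at 2 pmol (1.30-fold higher, 1.08 to 1.56), and Vsir (VISTA), at 20.2 CPM at 20 pmol and 15.7 CPM at 2 pmol (1.29-fold higher, 1.06 to 1.56). Pdcd1 (PD-1) stood at 69.0 CPM at 20 pmol and 62.7 CPM at 2 pmol, with an interval that reached equality, and Lag3 at 102 and 91.4 CPM, with one that did not.

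Further genes named by rank were Rgcc, Sla and S100a4. Rgcc, a regulator of the cell cycle, stood at 60.9 CPM at 20 pmol and 40.5 CPM at 2 pmol, 1.5-fold higher (1.34 to 1.69). Sla, an adaptor that lowers T cell receptor signalling, stood at 61.2 CPM at 20 pmol and 42.4 CPM at 2 pmol, 1.44-fold higher (1.29 to 1.62). In the list of vimentin, galectins, S100 proteins and annexins, 2 of 14 measured genes were called higher, beside 1.57% of all measured genes, and 0 lower, with a median log2 ratio of 0.17. They were the calcium-binding S100a4, at 18.6 CPM at 20 pmol and 11.4 CPM at 2 pmol (1.63-fold higher, 1.31 to 2.02), and the annexin gene Anxa2, at 32.0 CPM at 20 pmol and 22.6 CPM at 2 pmol (1.41-fold higher, 1.21 to 1.65). Vim itself was not called, at a log2 ratio of -0.22.

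Batf3 had the lowest ratio of the genes at 20 CPM or more, apart from Igkc, whose counts came mostly from 1 cell. It encodes an AP-1 family factor with roles in memory CD8+ T cell survival and in dendritic cell development. Batf3 stood at 38.2 CPM at 20 pmol and 63.8 CPM at 2 pmol, 1.67-fold lower (1.49 to 1.88), beside 92.7 CPM at 0.2 pmol and 1.09 CPM (1 UMI) in rested cells. Because Batf3 also marks dendritic cells, the other markers of that type were read: Itgax, Flt3, Zbtb46, Xcr1 and Siglech each had at most 4 UMIs in either culture. The 10 measured AP-1, BATF and IRF genes had a median log2 ratio of -0.07. Batf3 was the only 1 of them called, beside 0.749% of all measured genes called lower and 1.57% higher. Its relative Batf stood at 51.3 CPM at 20 pmol and 55.1 CPM at 2 pmol, and Irf4, a factor that scales with receptor signal strength, at 107.9 and 112.8 CPM.

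Among 20 measured naive and recirculation genes 0 were called higher and 1 lower, beside 0.749% of all measured genes called lower. Their median log2 ratio was 0.04, and 13 of the 20 were above 0. The called gene was Ly6c2, a surface antigen of memory CD8+ T cells. It stood at 21.4 CPM at 20 pmol and 28.8 CPM at 2 pmol (1.35-fold lower, 1.15 to 1.58), beside 63.7 CPM at 0.2 pmol. Eomes, a T-box factor of effector and memory cells, stood at 16.1 CPM at 20 pmol and 20.9 CPM at 2 pmol (1.30-fold lower, 1.08 to 1.57), beside 39.0 CPM at 0.2 pmol. Eomes is also in the list of natural killer cell markers used here. Of the other markers in that list, Ncr1 and Klrb1c had no UMI at either dose. Klre1 had 11 UMIs at 20 pmol and 7 at 2 pmol, and Klri2 had 3 and 1. Whether natural killer cells contributed was not tested. Tbx21, which encodes the related factor T-bet, stood at 31.6 CPM at 20 pmol and 32.0 CPM at 2 pmol. Among 17 measured effector and memory transcription factors, Twist1 was called higher and Eomes lower, beside 1.57% and 0.749% of all measured genes. Their median log2 ratio was 0.09.

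Other lower genes were named by rank. Pmepa1, an inhibitor of TGF-beta signalling, stood at 26.6 CPM at 20 pmol and 37.8 CPM at 2 pmol (1.42-fold lower, 1.23 to 1.64). Egln3, an oxygen sensor that marks HIF for decay, stood at 16.6 CPM at 20 pmol and 22.6 CPM at 2 pmol (1.37-fold lower, 1.14 to 1.64). Fam71b, Gprin3, Armc6 and Gmfg were 1.34, 1.30, 1.29 and 1.27-fold lower at 20 pmol. In that order they stood at 31.4, 35.6, 34.6 and 47.2 CPM at 2 pmol. At 0.2 pmol they stood at 42.1, 52.5, 32.3 and 47.5 CPM. In the integrated stress response list 2 of 11 measured genes were called lower, beside 0.749% of all measured genes, and 0 higher. Slc7a5, which encodes a large neutral amino acid transporter, stood at 21.7 CPM at 20 pmol and 27.4 CPM at 2 pmol. Sesn2, a leucine sensor that restrains mTORC1, stood at 11.6 and 14.9 CPM. At 0.2 pmol Slc7a5 stood at 30.7 CPM and Sesn2 at 12.7 CPM.

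Abundant genes can have narrow intervals without reaching the rule. Eif4ebp1, a repressor of translation, stood at 178 CPM at 20 pmol and 222 CPM at 2 pmol, beside 278 CPM at 0.2 pmol, 1.24-fold lower (1.17 to 1.31) and so not called. Socs2, a feedback inhibitor of cytokine receptors, stood at 40.0 CPM at 20 pmol and 49.7 CPM at 2 pmol, also 1.24-fold lower (1.10 to 1.40). Cish, of the same family, was 1.21-fold lower (1.08 to 1.35). Both stood higher at 0.2 pmol than at 2 or 20 pmol, Socs2 at 86.5 CPM and Cish at 66.5 CPM. Over all measured genes 1.57% were called higher and 0.749% lower, so 0 calls in a list of about 15 genes is near those shares. None of the 14 measured IL-2 and STAT5 responsive genes was called, and their median log2 ratio was -0.02. Likewise none of the 15 measured interferon responsive genes was called, with a median of -0.05. Ly6a, the largest of them in size of ratio, stood at 489 CPM at 20 pmol and 572 CPM at 2 pmol (1.17-fold lower, 1.13 to 1.21), and Iigp1, a GTPase that attacks parasite vacuoles, at 104.5 and 121.6 CPM (1.16-fold lower, 1.08 to 1.254).

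Lists of growth, metabolism and presentation had medians close to 0. Over all measured genes only 1.57% were called higher and 0.749% lower, so 0 calls in lists of this size were near those shares. No gene was called in the lists for S phase (27 measured, median log2 ratio 0.02), glycolysis (15, 0.02), cholesterol synthesis (22, -0.01), ribosome biogenesis (24, -0.01), serine, one-carbon and nucleotide synthesis (21, -0.04), apoptosis and p53 (13, -0.01), MHC class I presentation (18, -0.02) or ribosomal proteins (20, -0.02). Within the G2 and M phase list no gene was called either, but 25 of its 26 genes had log2 ratios above 0, with a median of 0.11, and 8 had intervals wholly above equality, beside 54.7% and 6.71% of all measured genes. Its largest ratios were those of Cenpe, a kinetochore motor, at 77.1 CPM at 20 pmol and 67.0 CPM at 2 pmol, and of Aurkb, a mitotic kinase, at 42.0 and 36.8 CPM. Mki67, the proliferation marker, stood at 279 CPM at 20 pmol and 255 CPM at 2 pmol. In all, 20 genes of the 23 lists were called higher and 6 lower, out of 372 measured list genes. Beside them stand the 1.57% and 0.749% of all measured genes, and the lists were chosen with earlier results of these data known.

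Some of these calls did not hold under another setting. With cells thinned to 2000 UMIs, Spry1, Nfkbie, Ctla4, Vsir, Eomes, Pmepa1, Fam71b and Egln3 were no longer called. Anxa2 was lost where every cell had equal weight, Tnfrsf4 where UMIs per cell were compared, Slc7a5 with Seurat hashtag calls, and Gmfg, Armc6 and Sesn2 under 3 settings each.

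**Figure D3:**
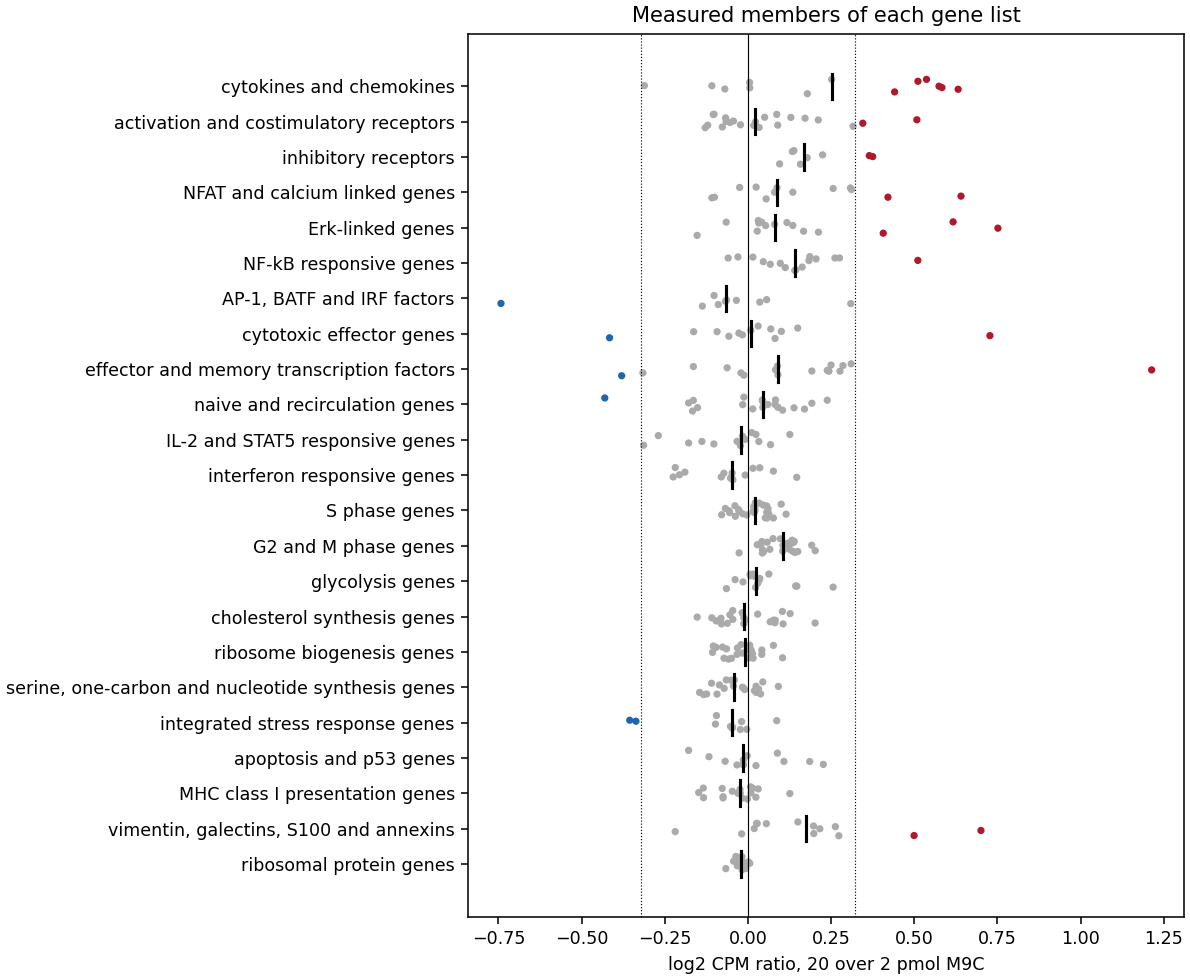
Each point is a measured member of a gene list, placed by its log2 CPM ratio of 20 over 2 pmol M9C, red where called higher, blue where called lower, with the list's median as a bar and dotted lines where one culture stands 25% above the other. The cytokine and chemokine list has 6 of 13 members called higher, beside 1.57% of all measured genes. S phase and ribosomal protein genes gather near 0.

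Whether more cells held a transcript, or each held more, was read after thinning each cell to 1000 UMIs, which left 1862 cells at 20 pmol, 1698 at 2 pmol and 464 of the 755 rested cells, whose median was 1056 UMIs, as the level that free RNA can give. Ccl3 was found in 25.8% of cells (95% interval 23.9 to 27.9) at 20 pmol and 19.4% (17.6 to 21.4) at 2 pmol, against 1.29% of rested cells. Its cells held 1.69 UMIs of it on average at 20 pmol and 1.597 at 2 pmol. Ccl4 was found in 30.3% of cells (28.2 to 32.4) at 20 pmol and 25.1% (23.04 to 27.2) at 2 pmol, against 1.08% of rested cells, with 1.77 and 1.65 UMIs per such cell. For both chemokine genes the intervals of the shares did not overlap. Without thinning, 58.3% of cells at 20 pmol and 51.1% at 2 pmol had a Ccl3 UMI, with 5.52 and 4.41 UMIs per such cell. A Ccl4 UMI was found in 63.9% of unthinned cells at 20 pmol and 59.1% at 2 pmol, with 6.11 and 4.95 UMIs per such cell. Share and level per positive cell were thus both higher at 20 pmol at either depth, and which of them differed more changed with the depth, since at 1000 UMIs the level per positive cell lies near its floor of 1.

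For rarer transcripts the shares were low and their intervals wide. Xcl1 was found in 7.04% of thinned cells (5.92 to 8.29) at 20 pmol and 5.54% (4.50 to 6.73) at 2 pmol, and Il2 in 2.69% (2.00 to 3.53) and 2.12% (1.49 to 2.92), so both pairs of intervals overlapped. The share for Ifng was 4.08% (3.23 to 5.08) at 20 pmol and 3.89% (3.02 to 4.92) at 2 pmol, while its UMIs per positive cell were 3.12 at 20 pmol and 2.45 at 2 pmol. That amount includes the few richest Ifng cells named above. At 4000 UMIs per cell the shares for Ifng were 9.86% at 20 pmol and 8.81% at 2 pmol, with 5.14 and 4.96 UMIs per positive cell, so the order of the 2 differences depended on the depth. Prf1 was in 4.46% of thinned cells (3.57 to 5.50) at 20 pmol and 2.77% (2.04 to 3.66) at 2 pmol, intervals that overlapped slightly, against 1.51% of rested cells. Without thinning, Prf1 was in 19.05% of cells at 20 pmol and 15.1% at 2 pmol, with 1.72 and 1.34 UMIs per such cell. Twist1 was found in 1.83% (1.27 to 2.54) at 20 pmol and 0.942% (0.540 to 1.53) at 2 pmol, and in 0 of 464 rested cells, which allows up to 0.792%. Without thinning, 165 of 1869 cells (8.83%) at 20 pmol and 79 of 1703 (4.64%) at 2 pmol had a Twist1 UMI. Tnfrsf4 was in 22.0% of thinned cells at 20 pmol and 18.4% at 2 pmol, and Batf3 in 3.22% (2.47 to 4.13) and 6.12% (5.03 to 7.37).

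**Figure D4:**
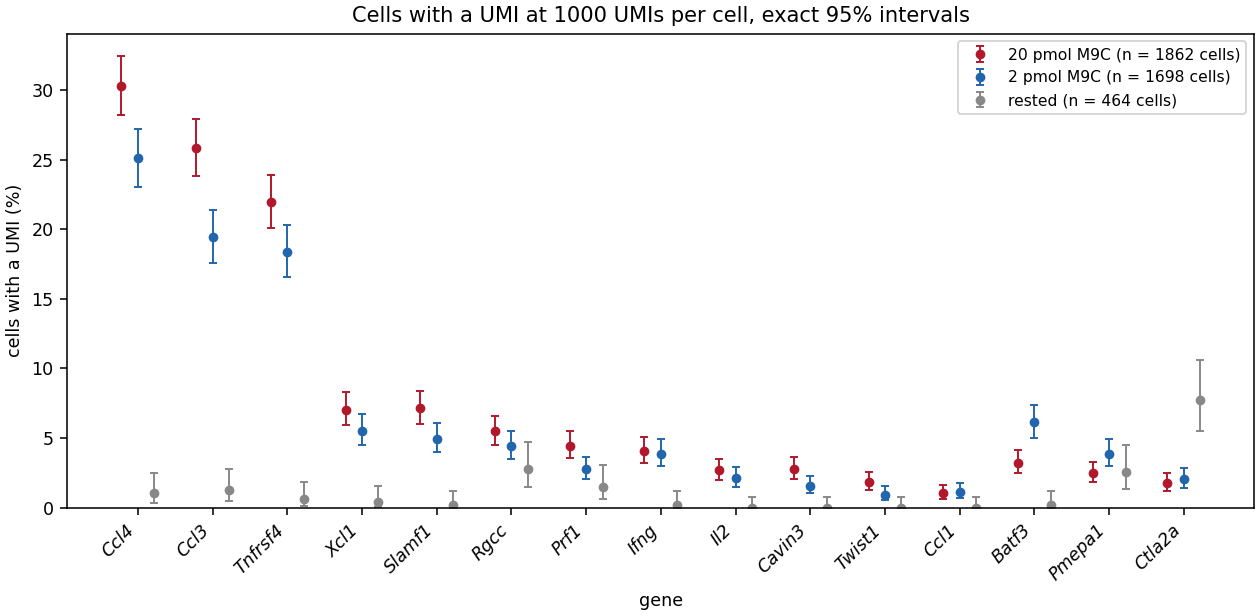
Points give the share of cells with at least 1 UMI of a gene (%) after thinning to 1000 UMIs, with exact 95% binomial intervals, for the 20 pmol M9C, 2 pmol M9C and rested cultures. Ccl3 and Ccl4 intervals lie apart between the doses, those of Il2 and Ifng overlap, and Batf3 is lower at 20 pmol.

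Cells were then counted by how many of 9 cytokine and chemokine genes (Ccl1, Ccl3, Ccl4, Xcl1, Il2, Ifng, Tnf, Csf2 and Lta) they held. At least 1 was found in 49.7% of thinned cells (47.4 to 52.0) at 20 pmol and 43.2% (40.8 to 45.6) at 2 pmol, against 7.33% of rested cells. At least 2 were found in 21.3% (19.4 to 23.2) at 20 pmol and 15.1% (13.5 to 16.9) at 2 pmol, against 0.431% of rested cells. The share with exactly 1 was close, 28.5% at 20 pmol and 28.0% at 2 pmol, and 4 or more were found in 21 cells (1.13%) at 20 pmol and 23 cells (1.35%) at 2 pmol. The intervals for 4 or more, 0.70 to 1.72% at 20 pmol and 0.86 to 2.03% at 2 pmol, were wide beside the shares and overlapped. They cover the sampling of cells within each culture only, so with 1 culture per dose no dose difference could be tested.

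**Figure D5:**
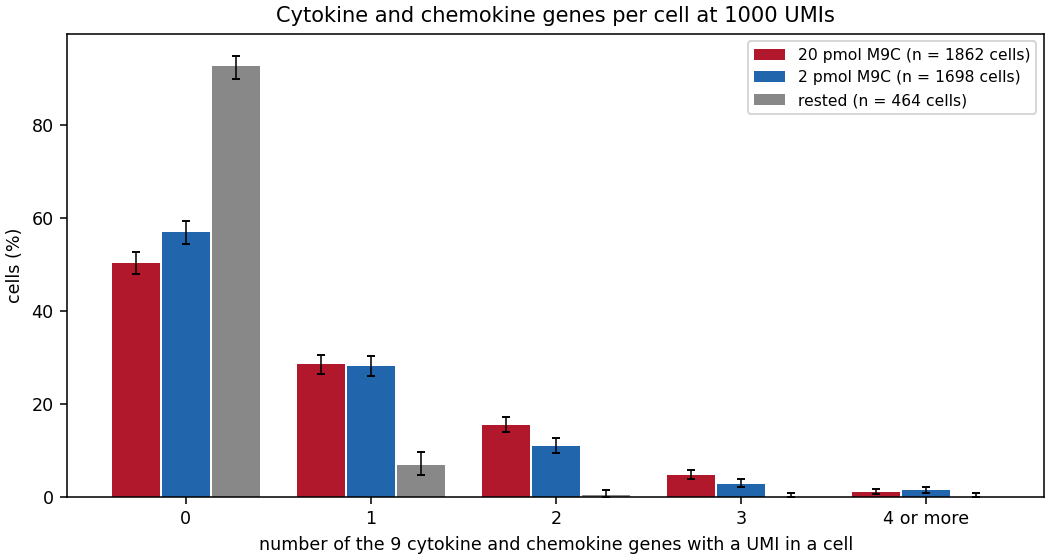
Bars (axis from 0) give the share of cells (%) holding 0 to 4 or more of 9 cytokine and chemokine genes at 1000 UMIs per cell, with exact 95% binomial intervals, for the 20 pmol M9C, 2 pmol M9C and rested cultures. At 20 pmol 50.3% of cells held none, against 56.8% at 2 pmol and 92.7% of rested cells.

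The sum of Ccl3 and Ccl4 UMIs averaged 0.972 per thinned cell at 20 pmol and 0.724 at 2 pmol, beside 0.479 at 0.2 pmol and 0.0237 in rested cells. Cells with 5 or more of these UMIs made up 4.78% (3.86 to 5.85) at 20 pmol and 2.83% (2.09 to 3.73) at 2 pmol. This pair of intervals did not overlap. Among cells with a Ccl3 or Ccl4 UMI, Xcl1 was found in 10.9% (8.76 to 13.3) at 20 pmol and 7.86% (5.81 to 10.3) at 2 pmol, while among cells with neither it was found in 4.32% at 20 pmol and 4.31% at 2 pmol. Prf1 was found in 6.73% (5.06 to 8.73) at 20 pmol and 3.42% (2.10 to 5.23) at 2 pmol among cells with the chemokines. Among cells without them it was found in 2.85% and 2.43%. Il2 was found in 4.79% at 20 pmol and 4.27% at 2 pmol of chemokine-positive cells, and in 1.19% and 0.988% of the others. Ifng leaned the other way among chemokine-positive cells, with 6.21% (4.61 to 8.15) at 20 pmol and 7.69% (5.67 to 10.2) at 2 pmol. Tnfrsf4, at 20 against 2 pmol, was found in 25.5% against 22.4% of chemokine-positive cells and 19.5% against 16.3% of the others. Cavin3 stood at 2.85% against 2.39% and, in the others, 2.75% against 1.17%. Shares for Twist1 were 2.85% against 1.20% and, in the others, 1.10% against 0.809%. Those for Ccl1 were 1.29% against 1.88% and, in the others, 0.918% against 0.719%. For every gene given in these classes, the intervals at the 2 doses overlapped.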

How the data were processed

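Counts are UMI counts per gene and counts per hashtag in 1 deposited 10x matrix, made by the authors. The submitters' processing notes name bcl2fastq, Cell Ranger 6.0.1 and the builds GRCm38 and mm10. How cells were told from empty droplets is not given in the sources used here. A deposited table ties hashtags to conditions. Of 13439 barcodes 1768 (13.2%) had no hashtag call by the margin rule and were left out. This removes doublets between cultures only where no hashtag holds 80% of counts, and none within a culture. Median counts of the top hashtag differed, at 3513 for 20 pmol, 4460 for 2 pmol and 1040 for rested cells. A doublet of unevenly labelled cells can therefore pass, and no other doublet caller was run. The gene filter failed 64 and 53 barcodes called for 20 and 2 pmol, and the mitochondrial filter 60 and 42. Of 1583 barcodes called for rested cells 828 failed the gene filter, so the 755 kept are a selected part of that culture. UMIs were summed per culture and scaled to CPM. Ratios have exact Clopper-Pearson 95% intervals, CPM exact Poisson and shares of cells exact binomial ones. A count of 0 was set at 3 counts. Cells were thinned without replacement. HTODemux (Seurat 5.3.0, R 4.3.3, quantile 0.99) was an alternative. Python 3.11.15, numpy 2.4.6, scipy 1.17.1 and pandas 2.3.3 were used. The calling step was checked on simulated Poisson totals per gene. Those lack the clustering of UMIs in a few cells seen for genes such as Ifng, so the check does not cover it. Positions come from GENCODE on GRCm38.

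Members, 23 gene lists and 11 cell type marker lists were chosen with earlier results of these data known, and the list tests of that earlier work were not used. Symbols shared by 2 gene IDs (Aldoa, Ddit3) were left out. Named genes were, at 20 CPM or more, the 12 on each side whose interval bound lay farthest from 0, leaving out genes with no proper name, genes of mitochondria, ribosomal proteins and antigen receptors, and markers of other cell types. Added to them were the 2 largest ratios of each list and every called list member. Other list members are named beside them to complete a family, and genes named outside lists and rule were chosen after their values were seen.

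Across the 11 marker lists, summed levels at 20 and 2 pmol were 2159 and 2018 CPM for CD8 T, 2.55 and 1.34 for CD4 T, 59.5 and 59.6 for gamma-delta T, 262 and 265 for B, 17.2 and 21.6 for NK, 2.79 and 2.67 for macrophage or monocyte, 38.6 and 64.3 for dendritic (nearly all Batf3), 0 and 0.0835 for neutrophil, 7.74 and 41.6 for erythroid, 1.78 and 0.918 for platelet, and 0.232 and 2.59 for basophil or mast cell markers.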

Additional observations from a re-analysis of the deposited data

How the results depend on the processing

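No paired analysis was possible because each dose was 1 culture with no replicate, and for the same reason no replicate could be left out. Beside 109 genes higher and 52 lower at 20 pmol, Seurat hashtag calls (1612 and 1550 cells) gave 112 and 66, of which 81 and 41 were the same genes. A stricter hashtag margin gave 113 and 57, stricter cell filters 108 and 44, no cells above 3 times the median UMIs 111 and 50, median-of-ratios scaling 103 and 54, UMIs per cell 88 and 74, and equal weight per cell 142 and 78. Scaling by median of ratios and by UMIs per cell shifted log2 ratios by 0.01 and 0.03. The count moved with cells thinned to 2000 UMIs (165 and 113, sharing 41 and 15 genes, from fewer UMIs), with a floor of 50 CPM (13 and 3), with no floor (252 and 184), at 1.5-fold (16 and 6) and at 2-fold (2 and 3). Chosen after seeing the data, no minimum fold gave 466 and 295, and a whole interval beyond a 25% difference 20 and 5.

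Called named genes kept their direction in all 8 settings that recompute ratios, and leaving out the 5 richest cells of a gene turned no direction. Twist1, Cavin3, Prf1, Xcl1, Ccl3, Ccl4, Il2, Slamf1, Nr4a2, Dusp6 and Batf3 were called in all 8. List medians close to 0 changed sign under some setting for activation receptors, cytotoxic, S phase, glycolysis, cholesterol and apoptosis genes. The cytokine median moved to 0.44 above 50 CPM and with no floor. All 123 ratios of shares of cells recomputed at 2000 or 4000 UMIs or unthinned stayed within the bounds set by both intervals at 1000 UMIs.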

Other observations

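Genes outside the lists and the naming rule, chosen here after their values were seen, included further signalling and trafficking genes. Nrp1, a coreceptor for semaphorins and VEGF, stood at 15.9 CPM at 20 pmol and 9.35 CPM at 2 pmol (1.71-fold higher, 1.35 to 2.17), beside 4.57 CPM at 0.2 pmol. Txk, a Tec family kinase of T cells, stood at 19.97 CPM at 20 pmol and 12.7 CPM at 2 pmol (1.57-fold higher, 1.28 to 1.94). Its level was 16.4 CPM at 0.2 pmol, so lowest at 2 pmol, and 198 CPM in rested cells. Ccr4, a chemokine receptor, stood at 7.66 CPM at 20 pmol and 13.3 CPM at 2 pmol (1.73-fold lower, 1.34 to 2.25). Pros1, the anticoagulant protein S, stood at 11.2 and 17.1 CPM (1.52-fold lower, 1.23 to 1.90). At 0.2 pmol Ccr4 stood at 15.5 CPM and Pros1 at 23.1 CPM.

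The 3 most extreme ratios came from transcripts held by 1 or a few cells. Igkc, an immunoglobulin light chain, had 33 UMIs in 33 cells at 20 pmol and 746 UMIs at 2 pmol, of which 720 were in 1 cell. The haemoglobin genes Hbb-bs and Hbb-bt had 48 and 44 UMIs at 20 pmol and 199 and 224 at 2 pmol, where 5 cells held 98.0% and 97.8% of them. Without the 5 richest cells in each culture, Igkc stood at 2.17 CPM at 20 pmol and 1.84 CPM at 2 pmol.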
